A study of Mus musculus with 18 samples.

Results

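The comparison set spleens of mice on a high fat diet that had alginate oligosaccharide (AOS, read so from the abbreviation), either dosed to the animal or reaching it through transplanted donor faeces, against spleens of mice on the same diet with neither. Its members were chosen by treatment label alone, 6 libraries with an AOS source and 6 without, out of 18 in the series. All 18 came from ICR mice, an outbred stock, aged 10 weeks. The 4 groups used here each held 3 libraries. They were the diet with AOS at 10 mg/kg (HFD+AOS), the diet alone (HFD), the diet with faecal microbiota transplantation (FMT, read so from the abbreviation) from donors on AOS at 10 mg/kg (AOS-FMT), and the diet with FMT from control donors (control-FMT). HFD+AOS was set against HFD and AOS-FMT against control-FMT, so FMT was equal within each pair and entered the model as a factor. The other 6 libraries, AOS and control mice off the diet, served only for levels. The labels do not say whether the 3 libraries of a group were separate animals, nor the sex, cage, day or hour of collection, and p-values measure the spread between these libraries.

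Alginate, cut into such short chains, comes from brown seaweed, and gut bacteria can ferment it. The spleen filters blood through its red pulp, where macrophages clear old red cells, and holds lymphocytes in its white pulp. In mice the red pulp also makes red cells, so a spleen library mixes RNA of dividing erythroid precursors with that of B cells, T cells, macrophages and the stroma of capsule and vessels. In bulk RNA, fewer cells of a type and less RNA per cell cannot be told apart.

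Values were FPKM, fragments scaled by transcript length and by the library's mapped fragments, for 19326 symbols. In the 12 diet libraries the column totals ran from 627964 to 764684 FPKM and between 12241 and 12586 genes reached 1 FPKM. Read depth is unknown. FPKM are shares of a library, so a rise in abundant transcripts such as haemoglobin can lower the values of all other genes. Its part in the lists that lay lower was not tested. The spleen's own transcription factor gene *Tlx1* was at 9.91 to 18.7 FPKM in every diet library. The Y-linked genes *Ddx3y* and *Eif2s3y* were at 27.96 to 43.8 and 71.1 to 81.7 FPKM, so every diet library held RNA of male cells. Transcripts of other tissues were also present, in amounts that differed between libraries of the same group. The summed level of 16 exocrine pancreas genes was 256, 20629 and 9154 FPKM in HFD+AOS replicates 1 to 3, against 973, 3150 and 147 in HFD. It was 67.2, 3791 and 310 FPKM in AOS-FMT, against 80.2, 9916 and 860.04 in control-FMT. Adipocyte genes summed to 32.3 to 312 FPKM in the 6 libraries with an AOS source and to 89.5 to 441 FPKM in the 6 without. Liver genes summed to 76.5, 511 and 89.97 FPKM in AOS-FMT, against 26.5, 31.1 and 41.0 in control-FMT, and 9 of the 13 tested were higher there at an unadjusted p under 0.05 (4.06% of all genes). Their part in the results below was not tested.

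No gene differed between the 6 libraries with an AOS source and the 6 without at an adjusted p of 0.05 (limma on log2(FPKM + 1), with FMT as a factor). Of 12801 genes tested, 0 passed (0%), and the lowest adjusted p was 0.116. At an unadjusted p under 0.05 there were 2101 genes (16.4%), 764 higher (5.97%) and 1337 lower (10.4%) with AOS. By pair, 6.85% were higher and 11% lower in HFD+AOS, and 4.06% higher and 7.98% lower in AOS-FMT. Counts of list members at that level below are to be set against these shares. Each difference below is AOS side minus side without, on the log2(FPKM + 1) scale, and the median over all genes tested was −0.05. Of all genes tested, 33.1% lay higher over both pairs, 42% between HFD+AOS and HFD and 34.3% between AOS-FMT and control-FMT, with the rest lower, so the counts of list members lying lower below are to be set against a majority of all genes. A stricter reading asks that every AOS library lie beyond every library it is set against, in both pairs. That held for 44 genes in the higher direction (0.344%) and 191 in the lower direction (1.49%). The count of 0 changed with the libraries used. Without HFD replicate 1, 263 genes passed, 221 higher and 42 lower, among them all 12 genes described in the next paragraphs up to *Cdc6* (adjusted p from 0.0262 to 0.0322). Without HFD+AOS replicate 3 there were 4, and without AOS-FMT replicate 2 there was 1.

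The gene with the smallest p was *C1ra* (chromosome 6, 124512621 to 124523440, GRCm38.p6), a protease of the C1 complex that starts the classical complement pathway. It was at 26.5, 29.4 and 30.6 FPKM in HFD+AOS, against 38.8, 37.0 and 34.0 in HFD, and at 26.8, 27.3 and 28.4 FPKM in AOS-FMT, against 38.5, 34.7 and 36.8 in control-FMT. All 6 AOS libraries were under all 6 without. The difference was −0.37 ± 0.05 (SE, adjusted p = 0.116), close to equal in both pairs (−0.33 and −0.40). *C1s2*, from the neighbouring family of C1s proteases, was at 6.54 to 8.51 FPKM with AOS and 9.39 to 10.0 without (−0.38, adjusted p = 0.145). *C1ra* and *C1s2* each have a near copy in the mouse genome, so the split of reads between copies is uncertain. *C3*, the protein on which all complement pathways converge, was at 215, 273 and 254 FPKM in HFD+AOS, against 314, 340 and 320 in HFD, and at 221, 246 and 208 in AOS-FMT, against 325, 286 and 276 in control-FMT. Here too no library overlapped within a pair, and the difference was −0.39 in each (adjusted p over both pairs = 0.149).

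*Gpr132* (chromosome 12, 112850873 to 112868416), a lysophospholipid-responsive receptor of lymphocytes and macrophages, had the largest difference among the 6 lowest genes. It was at 17, 19.95 and 20.8 FPKM in HFD+AOS, against 33.96, 30.1 and 32.1 in HFD, and at 20.3, 29.1 and 17.3 FPKM in AOS-FMT, against 37.2, 31.9 and 32.4 in control-FMT. AOS-FMT replicate 2 came close to the libraries without AOS, and without it the gene passed (adjusted p = 0.00267, against 0.145 with all 12). *Hvcn1*, the voltage-gated proton channel of B cells and phagocytes, was at 102.5 to 119 FPKM with AOS and at 133 to 166.5 FPKM without (−0.39, adjusted p = 0.145). *Dpt*, which codes for the matrix protein dermatopontin, was at 15.0 to 21.3 FPKM with AOS and at 23.2 to 33.5 FPKM without (−0.55, adjusted p = 0.149).

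Among genes on the higher side, *Fbxo3*, the substrate-binding part of a ubiquitin ligase, had the tightest groups. It was at 31.6, 31.4 and 31.4 FPKM in HFD+AOS, against 27.1, 26.7 and 27.2 in HFD, and at 30.4, 29.7 and 30.4 FPKM in AOS-FMT, against 26.9, 25.95 and 26.15 in control-FMT. The gap was small (0.20 ± 0.04 SE, adjusted p = 0.149) but wider than the range of either side. *Apol11b* (chromosome 15, 77633951 to 77643286), of the apolipoprotein L family, had the widest gap. It was at 23.8, 33.2 and 18.3 FPKM in HFD+AOS, against 16.1, 12.5 and 17.02 in HFD, and at 25.1, 28.2 and 20.4 FPKM in AOS-FMT, against 8.62, 8.58 and 12.9 in control-FMT. That is 0.94 ± 0.17 (SE, adjusted p = 0.161), with all AOS libraries above. *Blm*, a helicase of DNA repair, was at 7.66 to 10.2 FPKM with AOS and 5.82 to 7.12 FPKM without (0.43, adjusted p = 0.149). *Cpeb3*, a regulator of translation, and *Sh3tc2*, which acts in endosome recycling in Schwann cells, also lay apart in both pairs (0.42 and 0.51, adjusted p = 0.161 each). *Cdc6*, described with the replication genes below, was the other of the 6. In mice off the diet, *Blm* was at 7.44 to 8.36 FPKM with AOS and 9.08 to 11.9 FPKM in controls, the reverse order, with no test run.

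**Figure D1:**
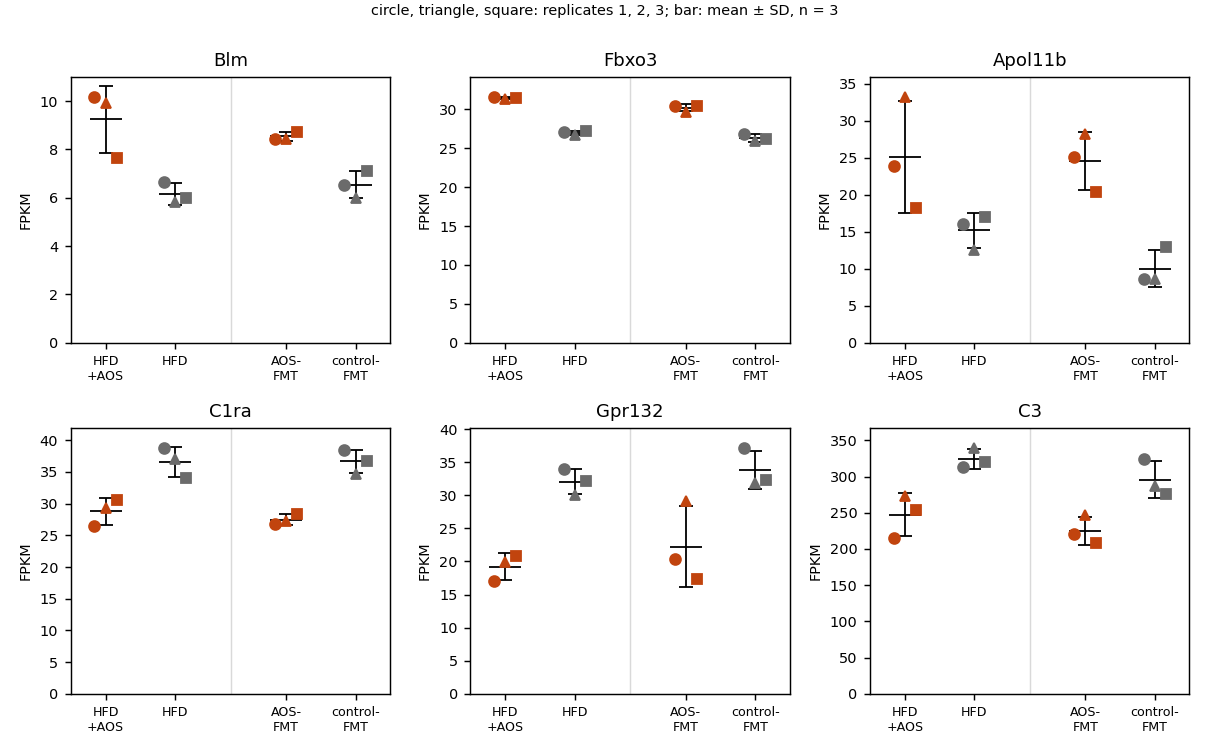
FPKM by library of 3 genes on the higher side (*Blm*, *Fbxo3*, *Apol11b*) and 3 on the lower side (*C1ra*, *Gpr132*, *C3*), with AOS libraries in orange beside the libraries they are set against in grey. In each panel the 3 orange points lie wholly above or wholly below their grey neighbours, in both pairs, though no gene passed an adjusted p of 0.05.

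Red cell genes lay higher with AOS as a group. The median of the 20 erythroid genes tested was 0.59 over both pairs, against −0.05 over all genes. All 20 were higher, 15 of them at an unadjusted p under 0.05 (5.97% of all genes higher). That level was reached by 1 of the 20 between HFD+AOS and HFD (6.85% of all genes higher) and by 14 between AOS-FMT and control-FMT (4.06% of all genes higher). None passed the adjusted test. The mean log2(FPKM + 1) of the list was 7.42, 7.17 and 6.71 in HFD+AOS replicates 1 to 3, against 7.52, 6.38 and 6.02 in HFD, and 7.52, 7.54 and 7.51 in AOS-FMT, against 6.78, 6.71 and 7.04 in control-FMT. AOS-FMT libraries were all above control-FMT, while HFD replicate 1 was above every HFD+AOS library. *Slc4a1*, the anion exchanger of the red cell membrane, was at 411, 347.5 and 206 FPKM in HFD+AOS, against 335.5, 135.5 and 166 in HFD, and at 367, 371.5 and 345 in AOS-FMT, against 183, 186 and 264 in control-FMT (0.72 ± 0.22 SE over both pairs). Its AOS-FMT libraries were all above control-FMT, while HFD replicate 1 lay among the HFD+AOS libraries. The erythropoietin receptor gene *Epor* was 0.67 higher and *Klf1*, a master transcription factor of erythroid cells, 0.54 higher. *Tmod1*, an actin-capping protein, was at 15.97 to 24.9 FPKM with AOS and 7.96 to 19.9 FPKM without (0.65, adjusted p = 0.177), and *Epb42*, of the membrane skeleton, was 0.70 higher (adjusted p = 0.177). Without HFD replicate 1, 14 of the 20 passed and the median was 0.79. With any other single library left out, at most 4 of all genes tested passed.

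Genes of haem synthesis lay higher too. All 12 tested were above their comparison libraries on average, 10 at an unadjusted p under 0.05 (5.97% of all genes higher), with a median of 0.49. By pair, 2 reached that level in HFD+AOS (6.85% of all genes higher) and 9 in AOS-FMT (4.06% of all genes higher). *Alas2*, the erythroid enzyme of the first step, is in both lists. *Abcb6*, a porphyrin transporter, was at 18.03, 16.3 and 11.98 FPKM in HFD+AOS, against 14.1, 9.54 and 8.14 in HFD, and at 17.6, 14.5 and 15.98 FPKM in AOS-FMT, against 11.02, 9.89 and 11.03 in control-FMT (0.53, adjusted p = 0.165). *Abcb10*, a mitochondrial transporter needed for haem synthesis, was 0.59 higher (adjusted p = 0.171). Without HFD replicate 1, 9 of the 12 passed. With any other single library left out, at most 4 of all genes tested did.

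Haemoglobin transcripts themselves took 28.1%, 19.9% and 12.6% of all FPKM in HFD+AOS, against 27.4%, 11% and 10.8% in HFD, and 26.4%, 21.5% and 24.3% in AOS-FMT, against 15.4%, 18.4% and 18.8% in control-FMT. The mean was 22.1% with AOS and 16.98% without, a difference of 5.16 percentage points that did not pass an exact permutation test within pairs (two-sided p = 0.16, 400 arrangements, smallest possible p 0.005). With same-numbered libraries taken as pairs the same difference passed (exact permutation p = 0.03125, the smallest that this test can give). Residuals of same-numbered libraries correlated at 0.24, 0.27 and 0.19 in HFD+AOS and HFD. In AOS-FMT and control-FMT they correlated at 0.51, 0.39 and −0.11, so the pairing is uncertain. Without HFD replicate 1 the difference was 7.90 points (exact permutation p = 0.02). With any other single library left out it did not pass (exact permutation p from 0.105 to 0.435). The last was 3.19 points, without HFD+AOS replicate 1. The alpha and beta globin copies are near-identical, so this share used only their sum. The erythroid list above counted 4 of the 10 haemoglobin genes as single genes, *Hba-a1*, *Hba-a2*, *Hbb-bs* and *Hbb-bt*. With these 4 alone the difference in share was 2.78 points (exact permutation p = 0.315). The other haemoglobin genes are left out of that value, so it is not a test of all adult globin.

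Genes of dividing cells lay higher in both pairs as well. All 26 mitosis genes were higher, 21 at an unadjusted p under 0.05 (5.97% of all genes higher), with a median of 0.36. Of 28 DNA replication genes, 27 were higher, 22 at that level, with a median of 0.28. *Cdc6*, which loads the replicative helicase on origins, was at 37.1, 33.0 and 24.2 FPKM in HFD+AOS, against 24.3, 17.3 and 19.6 in HFD, and at 27.8, 28.6 and 30.0 FPKM in AOS-FMT, against 21.1, 17.2 and 22.7 in control-FMT (0.54 ± 0.11 SE, adjusted p = 0.161). The proliferation marker *Mki67* was at 88.7 to 145 FPKM with AOS and 60.8 to 109.7 FPKM without (0.52, adjusted p = 0.172). *Kif23*, a kinesin of cell separation, was 0.37 higher, and *Rrm1*, a subunit of ribonucleotide reductase, 0.34 higher. The median of the mitosis list was 0.44 between HFD+AOS and HFD and 0.27 between AOS-FMT and control-FMT. At an unadjusted p under 0.05, 18 of its 26 genes were higher in HFD+AOS (6.85% of all genes) and 3 in AOS-FMT (4.06% of all genes). Which cells carried these transcripts cannot be read from bulk RNA. In HFD+AOS and HFD, replicate 1 was the highest of its group in both the erythroid and the mitosis list, but in AOS-FMT and control-FMT the highest library differed between the lists. The part of erythroid cells in the mitosis list was not tested.

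**Figure D2:**
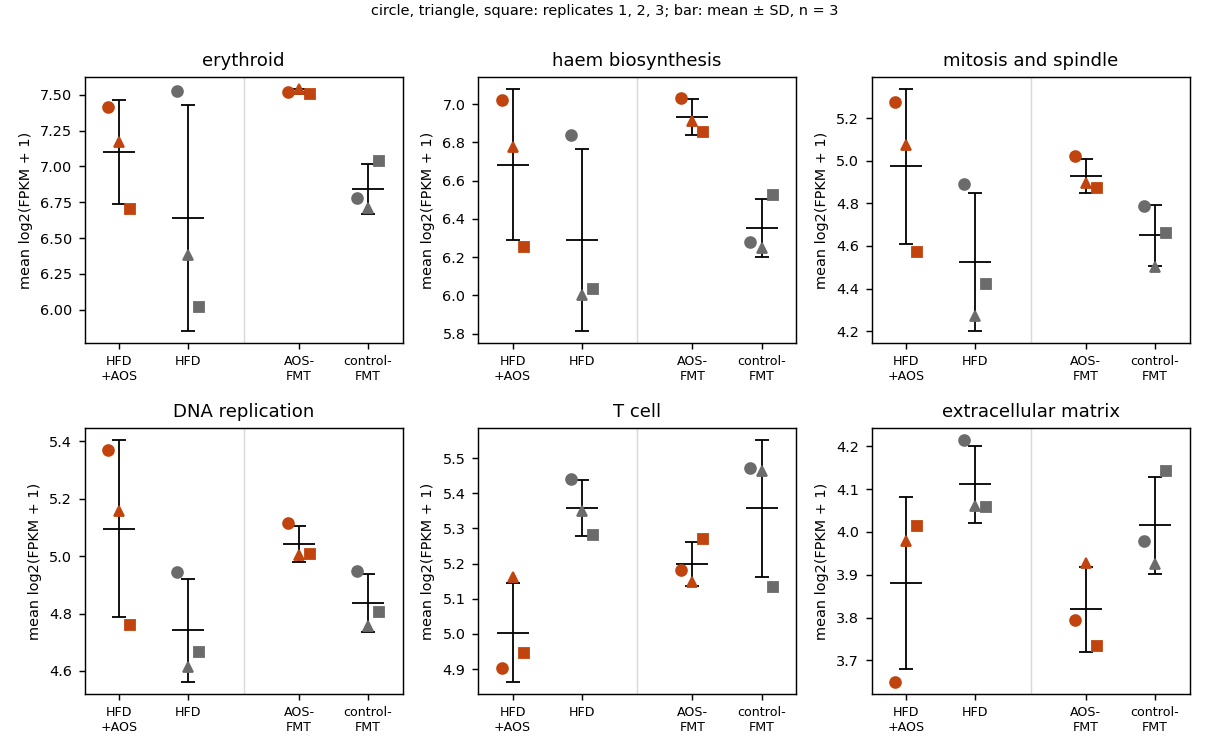
Mean log2(FPKM + 1) of 6 gene lists in each library. The erythroid, haem, mitosis and replication lists are higher in all 3 AOS-FMT libraries than in every control-FMT library, while HFD replicate 1 (grey circle) and HFD+AOS replicate 3 (orange square) overlap with the other group. T cell and extracellular matrix lists tend the other way.

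Genes of T cells and B cells lay lower with AOS over both pairs, with more of them at an unadjusted p under 0.05 in HFD+AOS. There 10 of 15 T cell and 6 of 14 B cell genes were lower at that level (11% of all genes). In AOS-FMT 1 and 2 were (7.98% of all genes). Of 16 genes of NK and cytotoxic cells, 8 lay higher, and of 14 plasma cell genes 12 lay higher over both pairs, none of either list at an unadjusted p under 0.05. Of 15 T cell genes, 0 were higher and 10 were lower at an unadjusted p under 0.05, with a median of −0.24. *Thy1*, a surface glycoprotein of T cells, was at 56.7, 73.8 and 57.3 FPKM in HFD+AOS, against 119.6, 105 and 76.8 in HFD, and at 61.6, 74.2 and 75.0 FPKM in AOS-FMT, against 101.5, 96.4 and 84.5 in control-FMT (−0.54 ± 0.11 SE). Its groups did not overlap in either pair. *Cd4*, the co-receptor of helper T cells, had a difference of −0.24. The 12 genes of naive T cells and recirculation were all lower, 7 at an unadjusted p under 0.05 (10.4% of all genes). By pair, 6 were lower at that level in HFD+AOS and 2 in AOS-FMT. *Tcf7*, a transcription factor of naive T cells, was at 51.4 to 64.3 FPKM with AOS and 66.35 to 79.7 FPKM without (−0.33), and *Satb1*, a chromatin organiser of T cells, was at 24.5 to 29.9 FPKM with AOS and 30.6 to 39.3 FPKM without (−0.30). All 14 B cell genes lay lower, 8 at an unadjusted p under 0.05 (10.4% of all genes), with a median of −0.19. *Fcer2a*, which codes for the IgE receptor CD23 of mature B cells, had the largest difference of these (−0.39 ± 0.13 SE). It was at 84.3, 108 and 117 FPKM in HFD+AOS against 161, 197 and 129.6 in HFD, but at 126, 122 and 134 in AOS-FMT, against 124, 153 and 147 in control-FMT, where the groups overlapped. With libraries scaled by median ratios, 8 T cell genes and 4 B cell genes had an unadjusted p under 0.05, and all genes of these lists had a negative difference.

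MHC class II genes, whose products show peptides to helper T cells, lay lower as well. Of 10 tested, 9 lay lower and 8 did so at an unadjusted p under 0.05 (10.4% of all genes), and 4 had no overlap in either pair (1.49% of all genes). By pair, 8 were lower at that level in HFD+AOS (11% of all genes) and 3 in AOS-FMT (7.98% of all genes). Over 11 settings that left out no library, scaling by median ratios among them, 5 to 9 were lower at that level over both pairs. The chaperone of class II, *Cd74*, was at 3638, 3671 and 4376 FPKM in HFD+AOS, against 4810, 5347 and 4839 in HFD, and at 4207, 4294 and 4398 FPKM in AOS-FMT, against 4651, 4762 and 4961 in control-FMT (−0.26 ± 0.06 SE). *H2-Ab1*, the beta chain of I-A, was at 1082 to 1415 FPKM with AOS and 1450 to 1636 FPKM without (−0.28), and *H2-DMa*, a peptide-loading factor, at 82.9 to 99.2 FPKM with AOS and 101.2 to 111 FPKM without (−0.23). *Ciita*, the transcription factor that switches class II genes on, had a difference of −0.20. *H2-Eb1* was the exception, at 314, 312 and 393 FPKM in HFD+AOS, against 164, 43.2 and 19.8 in HFD, and at 46.8, 102 and 333 FPKM in AOS-FMT, against 376, 72.0 and 330 in control-FMT. Its libraries spread over a far wider range than those of any other class II gene here.

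Genes of the stroma lay lower too. Of 21 extracellular matrix genes, 18 lay lower, 11 at an unadjusted p under 0.05 (10.4% of all genes), with a median of −0.20. Over 11 settings that left out no library, scaling by median ratios among them, 10 to 11 were lower at that level. *Col6a1*, a chain of collagen VI, was at 8.43, 10.4 and 8.36 FPKM in HFD+AOS, against 16.1, 13.6 and 11.3 in HFD, and at 9.96, 9.19 and 9.14 FPKM in AOS-FMT, against 12.4, 11.1 and 11.8 in control-FMT (−0.41 ± 0.09 SE). Every AOS library was below. *Dcn*, the small proteoglycan decorin, was at 39.5 to 71.9 FPKM with AOS and 73.1 to 119.2 FPKM without (−0.62), and *Fn1*, fibronectin, had a difference of −0.25. Of 13 complement genes 12 lay lower, 4 at an unadjusted p under 0.05 (10.4% of all genes), *C3* among them. *Cfd*, which adipocytes secrete, was at 0.89, 30.9 and 16.8 FPKM in HFD+AOS, against 48.8, 45.2 and 46.2 in HFD, and at 16.03, 47.96 and 9.65 FPKM in AOS-FMT, against 13.7, 56.8 and 47.4 in control-FMT. The mean of the 14 adipocyte genes was low in HFD+AOS replicate 1, AOS-FMT replicate 3 and control-FMT replicate 1 (1.03, 1.58 and 1.8 on the log2 scale, against 2.15 to 3.40 in the other 9 libraries). In control-FMT replicate 1, *C3* and *C1ra* were at 325 and 38.5 FPKM, the highest of its group. In HFD+AOS replicate 1 they were at 215 and 26.5 FPKM, the lowest of its group. In AOS-FMT replicate 3, *C3* was the lowest of its group (208 FPKM) and *C1ra* the highest (28.4 FPKM). The part of adipose transcripts in the other differences was not tested.

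The 2 ways of giving AOS were then compared directly. Across the 12801 genes, 56.5% had the same sign in both pairs, and the correlation across genes of the differences was −0.09 (Pearson) and 0.04 (Spearman). The pairs share no library, and genes are not independent replicates. A further 181 genes were above their comparison libraries without overlap in HFD+AOS and below without overlap in AOS-FMT, and 43 the reverse. Within each pair alone, 6.48% of genes were higher and 9.61% lower without overlap in HFD+AOS, and 7.7% higher and 15.8% lower in AOS-FMT. The test of the difference between pairs, the interaction of AOS source with FMT, found 5 genes (0.0391%), all more negative in the AOS-FMT pair. At an unadjusted p under 0.05 there were 1553 (12.1%), 610 more positive (4.77%) and 943 more negative (7.37%).

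*Dbp* was the gene that differed most. It codes for a PAR bZIP transcription factor and is among the most strongly daily-cycling transcripts in mouse tissues. *Dbp* was at 12.5, 15.9 and 16.2 FPKM in HFD+AOS, against 7.36, 7.14 and 6.94 in HFD, and at 5.95, 4.68 and 7.12 FPKM in AOS-FMT, against 17.96, 21.4 and 16.3 in control-FMT. It was higher in HFD+AOS than in HFD (0.96 ± 0.14 SE, adjusted p = 0.0325). In AOS-FMT it was lower than in control-FMT (−1.51 ± 0.14 SE, adjusted p = 0.00188). The mean was 5.92 FPKM in AOS-FMT, near the 7.15 of HFD, while control-FMT was high at 18.6. The difference between the pairs was −2.46 ± 0.20 (SE, adjusted p = 0.000383). Over both pairs together it was −0.28 and did not pass. The difference of AOS-FMT from control-FMT and that between pairs passed in all 21 alternative settings tried, that of HFD+AOS from HFD in 11 of them. Off the diet, *Dbp* was at 6.19 to 9.69 FPKM in AOS mice and 4.89 to 7.15 FPKM in controls.

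In the clock, CLOCK and ARNTL activate *Nr1d1*, *Dbp* and the period genes through E-boxes, the period and cryptochrome proteins repress them, and NR1D1 represses *Arntl* through a ROR element, so *Arntl* peaks about opposite to *Dbp*. *Nr1d1* was at 6.90, 8.48 and 9.72 FPKM in HFD+AOS, against 4.06, 4.45 and 3.04 in HFD, and at 2.73, 1.79 and 4.37 FPKM in AOS-FMT, against 10.02, 8.46 and 9.61 in control-FMT. Its interaction was −2.39 ± 0.29 (SE, adjusted p = 0.0193), passing in 15 of 21 settings, and neither pair passed alone (adjusted p = 0.0994 and 0.125). Of the 14 listed genes that peak with *Dbp*, 9 lay higher in HFD+AOS than in HFD, 6 of them at an unadjusted p under 0.05 (6.85% of all genes). In AOS-FMT 13 lay lower than in control-FMT, 9 at that level (7.98% of all genes). *Per3*, a period gene, was at 3.18 to 4.13 FPKM in HFD+AOS, against 1.67 to 2.67 in HFD, and at 2.21 to 2.39 FPKM in AOS-FMT, against 3.1 to 4.38 in control-FMT. *Tef*, a relative of *Dbp*, *Nr1d2*, a relative of *Nr1d1*, and *Bhlhe41*, a repressor, had interactions of −0.80, −0.94 and −1.06 that did not pass. *Per1* and *Per2* lay lower in both pairs, at −0.20 and −0.17 in HFD+AOS and −0.06 and −0.22 in AOS-FMT. Among 5 genes of the opposite phase, *Arntl* was at 6.66, 7.75 and 8.15 FPKM in HFD+AOS, against 9.08, 9.77 and 10.8 in HFD, and at 8.48, 10.4 and 9.21 FPKM in AOS-FMT, against 7.78, 8.53 and 8.80 in control-FMT, with an interaction of 0.49 that did not pass (adjusted p = 0.205). The labels give no hour of collection, so group and hour cannot be told apart.

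**Figure D3:**
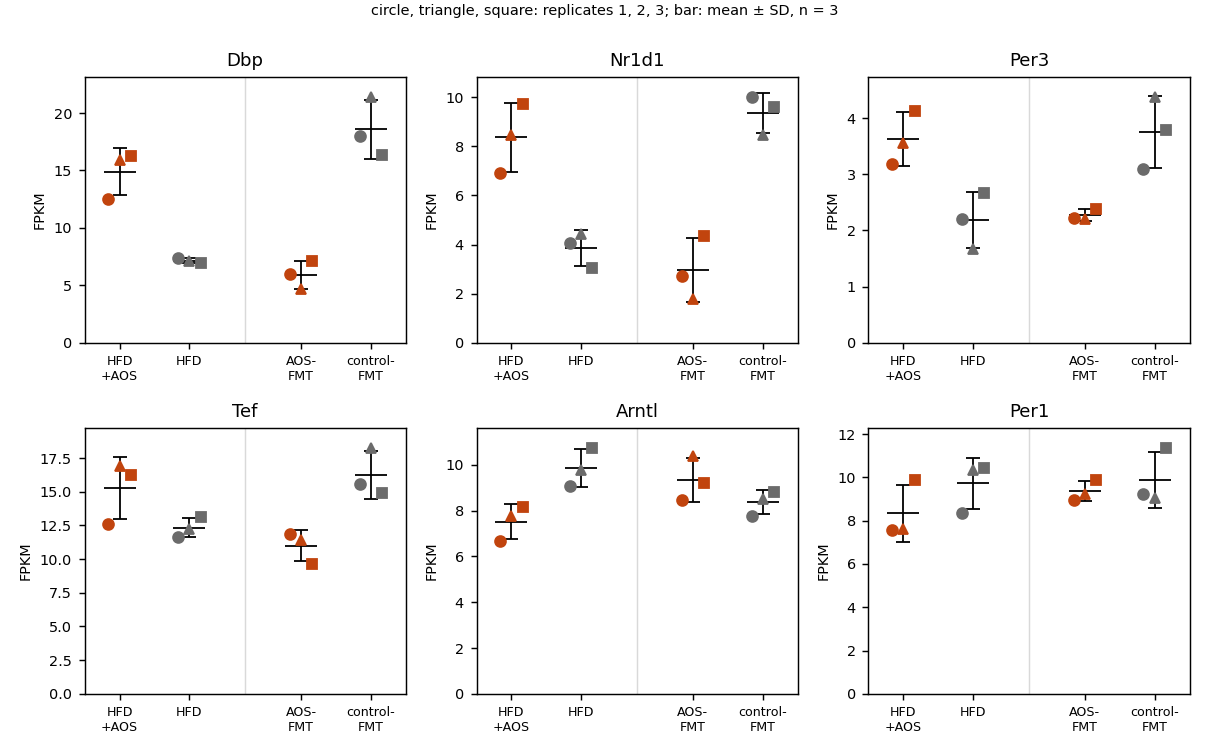
FPKM by library of 6 clock genes. *Dbp*, *Nr1d1*, *Per3* and *Tef* are higher on average in HFD+AOS and control-FMT than in HFD and AOS-FMT, *Arntl* is lowest on average in HFD+AOS, and *Per1* overlaps between groups.

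Promoter windows of 300 bases, mostly upstream of each annotated start, are shown for the clock genes above so that the elements through which the clock can act may be looked for in them. Sequences are from RefSeq on GRCm38.p6, given 5′ to 3′ on the gene's strand, and 17 of the 20 listed clock genes had one. Capitals mark matches, on either strand, to the E-box CACGTG, the related CACGTT, the D-box TTATGNAA bound by the DBP family, or the ROR element core TAGGTCA. Among all 32851 windows 7.15%, 4.68%, 3.38% and 2.61% held these motifs, in that order. The windows are chr7:45704997-45705296 (+) for *Dbp*, chr11:98775328-98775627 (−) for *Nr1d1*, chr4:151044616-151044915 (−) for *Per3* and chr7:113207261-113207560 (+) for *Arntl*.
Dbp: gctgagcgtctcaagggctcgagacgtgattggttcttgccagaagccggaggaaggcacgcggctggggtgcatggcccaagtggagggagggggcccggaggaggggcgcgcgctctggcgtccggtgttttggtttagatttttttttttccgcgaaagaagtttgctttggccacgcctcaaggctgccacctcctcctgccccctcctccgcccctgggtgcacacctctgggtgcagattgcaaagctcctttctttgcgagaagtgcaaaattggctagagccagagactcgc
Nr1d1: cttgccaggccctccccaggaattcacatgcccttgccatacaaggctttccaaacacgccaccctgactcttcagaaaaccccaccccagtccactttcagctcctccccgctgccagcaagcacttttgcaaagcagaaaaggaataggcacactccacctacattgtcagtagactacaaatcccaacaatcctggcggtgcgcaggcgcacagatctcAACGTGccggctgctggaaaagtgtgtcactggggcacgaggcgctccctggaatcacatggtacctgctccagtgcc
Per3: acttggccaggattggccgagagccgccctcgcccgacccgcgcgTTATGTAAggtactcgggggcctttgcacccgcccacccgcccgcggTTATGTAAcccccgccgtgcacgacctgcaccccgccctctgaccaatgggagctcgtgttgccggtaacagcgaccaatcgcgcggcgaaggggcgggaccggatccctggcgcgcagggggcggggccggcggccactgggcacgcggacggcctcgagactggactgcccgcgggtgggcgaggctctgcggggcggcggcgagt
Arntl: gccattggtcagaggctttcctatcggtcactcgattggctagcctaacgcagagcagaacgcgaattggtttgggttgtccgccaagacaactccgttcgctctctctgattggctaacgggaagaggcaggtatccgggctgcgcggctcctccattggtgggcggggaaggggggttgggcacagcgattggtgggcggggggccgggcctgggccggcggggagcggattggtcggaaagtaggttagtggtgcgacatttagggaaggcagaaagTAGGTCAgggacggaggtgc

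*Per3* holds 2 matches to the D-box and *Nr1d1* 1 match to CACGTT, read as AACGTG on this strand, while the *Arntl* window shown holds the ROR core. A second annotated *Arntl* start lies close by, and its window (chr7:113207215-113207514) holds no match. The *Dbp* window holds none of the 4, which says only that these letters are not in this stretch. Of the 12 genes of the *Dbp* phase with a window, 4 held an E-box, 2 the CACGTT form and 2 a D-box, and none held the ROR core. Of 5 of the opposite phase, 2 held the ROR core.

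The other 3 genes with a passing interaction had no place in the clock lists. *Pgam2*, the muscle form of a glycolytic mutase, was at 6.97, 6.42 and 4.61 FPKM in HFD+AOS, against 1.28, 1.94 and 2.84 in HFD, and at 1.24, 1.44 and 1.24 FPKM in AOS-FMT, against 2.58, 2.47 and 2.46 in control-FMT (interaction −1.83, adjusted p = 0.0262). It rose with dosed AOS (1.23, adjusted p = 0.0325). *Tmsb15b1*, a thymosin beta gene, was at 0.52, 1.22 and 0.77 FPKM in HFD+AOS, against 0.25, 0.49 and 0 in HFD, and at 0.61, 0.48 and 0.58 FPKM in AOS-FMT, against 2.27, 2.53 and 2.03 in control-FMT (interaction −1.63, adjusted p = 0.0393). The provisional gene *Gm46894* had an interaction of −1.48 (adjusted p = 0.0193). These calls depended on the setting: *Gm46894* passed in 14 of 21 alternatives, *Pgam2* in 11 of 21 and *Tmsb15b1* in 7 of 20.

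Within the pairs, 12 genes passed between HFD+AOS and HFD (0.0937%), 4 higher and 8 lower. Beside *Dbp* and *Pgam2* the rises were in *Gm46894* (0.84) and *Gm46403* (0.58). The falls had muscle, matrix and T cell genes among them. *Trat1*, an adaptor of the T cell receptor, was at 5.94, 7.59 and 8.44 FPKM in HFD+AOS and 13.5, 12.6 and 16.1 FPKM in HFD (−0.86 ± 0.12 SE, adjusted p = 0.0325), but lay at 11.7 to 13.8 FPKM in AOS-FMT and 11.9 to 12.8 FPKM in control-FMT. *Cryab*, a small heat shock protein of muscle (−0.72), *Sln*, a regulator of the muscle calcium pump (−1.43), *Ogn*, the matrix protein osteoglycin (−0.90), *S100a10*, a partner of annexin (−0.52), *Rflnb*, a filamin regulator (−0.57), and *Chst10*, a sulfotransferase (−0.95), fell too. With replicate number as a block over all 4 groups, 48 passed, 13 higher and 35 lower. The count was 0 without HFD replicate 2, AOS-FMT replicate 3 or control-FMT replicate 2, 1 without HFD+AOS replicate 1 or 2 or AOS-FMT replicate 1, 4 without HFD replicate 3, 229 without HFD replicate 1 and 370 without HFD+AOS replicate 3. Between AOS-FMT and control-FMT only *Dbp* passed (0.00781%), with 1542 genes at an unadjusted p under 0.05 (12%).

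Whole lists ran in opposite directions in the pairs. Of 14 plasma cell genes, all lay higher in HFD+AOS than in HFD, 12 at an unadjusted p under 0.05 (6.85% of all genes), with a median of 0.81. All lay lower in AOS-FMT than in control-FMT, 5 at that level (7.98% of all genes), with a median of −0.33. The interaction was negative at an unadjusted p under 0.05 for 13 of 14 (7.37% of all genes), none past the adjusted test. *Sdc1*, the plasma cell surface proteoglycan CD138, was at 11.7, 13.9 and 9.54 FPKM in HFD+AOS, against 4.63, 4.31 and 6.28 in HFD, and at 4.83, 5.42 and 4.88 FPKM in AOS-FMT, against 9.71, 5.95 and 4.78 in control-FMT (interaction −1.39, adjusted p = 0.136). HFD+AOS stood apart from the other 3 groups, except for control-FMT replicate 1. *Prdm1*, the regulator that drives plasma cell fate, and *Tnfrsf17*, the survival receptor BCMA, were 0.84 and 1.02 higher in HFD+AOS than in HFD. Without control-FMT replicate 1, 1 of the 14 was lower at that level in AOS-FMT, and the median there was −0.14.

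Type I interferon genes had the same layout. In HFD+AOS 21 of 22 lay higher than in HFD, 12 at an unadjusted p under 0.05 (6.85% of all genes), with a median of 0.50. In AOS-FMT 19 lay lower than in control-FMT, 8 at that level (7.98% of all genes), with a median of −0.34. The antiviral gene *Ifit3* was at 58.9, 30.7 and 39.2 FPKM in HFD+AOS, against 22.3, 15.2 and 22.3 in HFD, and at 8.46, 7.36 and 7.30 FPKM in AOS-FMT, against 15.3, 12.4 and 12.5 in control-FMT (interaction −1.76). The groups were fully apart in both pairs, with HFD+AOS highest and AOS-FMT lowest of the 12. *Irf7*, which amplifies interferon production, was at 215, 95.7 and 108 FPKM in HFD+AOS, against 53.5, 52.9 and 64.8 in HFD, and at 33.1, 25.9 and 34.1 FPKM in AOS-FMT, against 55.5, 44.4 and 41.1 in control-FMT (interaction −1.77). *Isg20* and *Rsad2* departed from the list, at 0.46 and 0.32 higher in AOS-FMT. Without HFD+AOS replicate 1, 5 of the 22 were higher in HFD+AOS at that level. In a fit over all 18 libraries 4 of 22 interactions had an unadjusted p under 0.05, against 13 in the main fit (7.37% of all genes more negative).

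Heat shock genes ran the other way. All 14 lay lower in HFD+AOS than in HFD, 7 at an unadjusted p under 0.05 (11% of all genes), with a median of −0.81. In AOS-FMT 13 lay higher than in control-FMT, 2 at that level (4.06% of all genes), with a median of 0.51. *Cryab* is in this list. The chaperone gene *Hsph1* was at 24.5, 19.6 and 59.1 FPKM in HFD+AOS, against 37.7, 93.8 and 204.6 in HFD, and at 158, 193 and 146 FPKM in AOS-FMT, against 54.9, 97.0 and 134 in control-FMT (interaction 2.40). *Hsp90aa1*, the inducible cytosolic chaperone, was at 234 to 352 FPKM in HFD+AOS, against 287 to 815 in HFD, and at 623 to 878 FPKM in AOS-FMT, against 424 to 618 in control-FMT. HFD replicate 1 lay with the HFD+AOS libraries in both genes. Heat shock transcripts can rise in tissue between death and freezing, for which the labels give no times, and its part was not tested. Of 10 plasmacytoid dendritic cell genes 7 had a negative interaction at an unadjusted p under 0.05 (7.37% of all genes), among them *Siglech*, a lectin of these cells (−0.89).

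**Figure D4:**
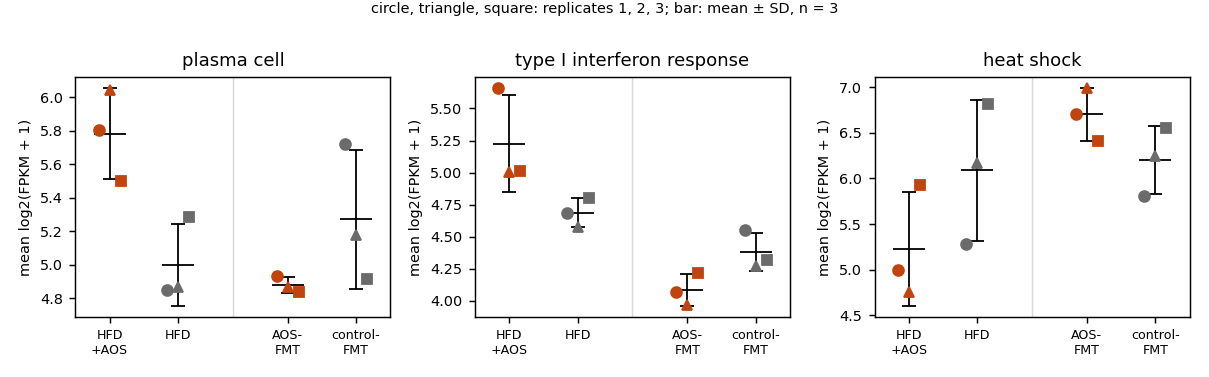
Mean log2(FPKM + 1) by library of plasma cell, type I interferon and heat shock genes. Interferon genes are highest in HFD+AOS and lowest in AOS-FMT, plasma cell genes are high in HFD+AOS and in control-FMT replicate 1, and heat shock genes are lowest in HFD+AOS replicates 1 and 2.

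**Figure D5:**
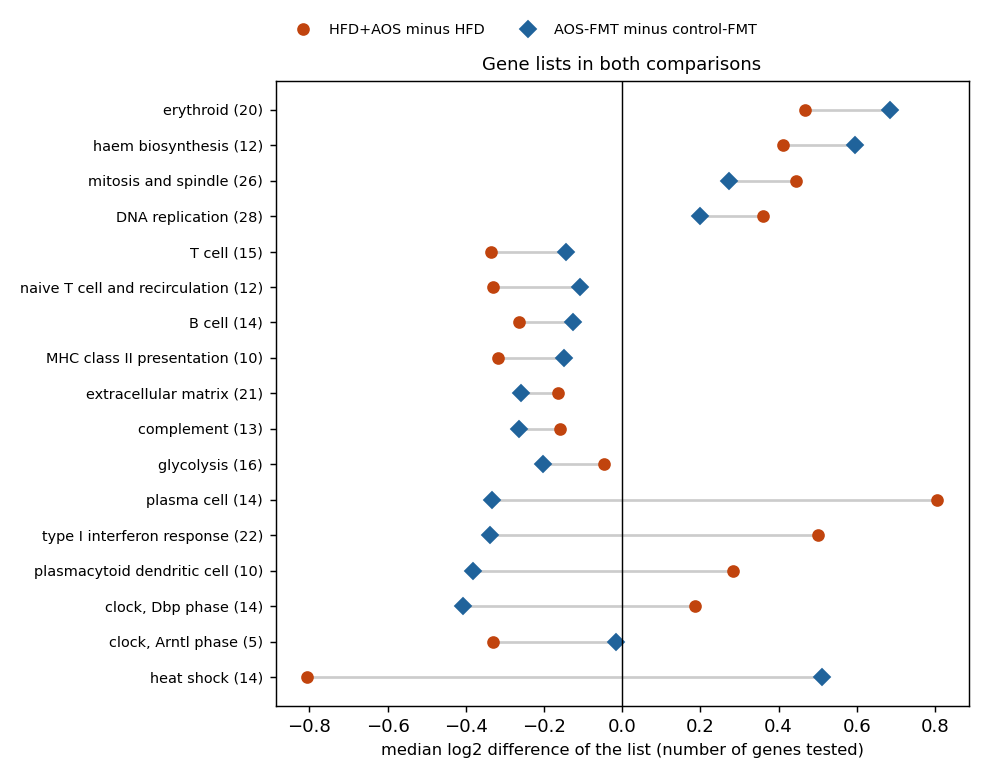
Median log2 difference of 17 gene lists between HFD+AOS and HFD (orange circles) and between AOS-FMT and control-FMT (blue diamonds), with the number of genes tested in brackets. The upper 11 lists lie on the same side of 0 in both pairs, and the plasma cell, interferon, plasmacytoid dendritic cell, *Dbp* phase and heat shock lists lie on opposite sides.

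Other lists showed little. The 32 cytosolic ribosomal protein genes had a median of 0.00 with 16 on each side, 30 oxidative phosphorylation genes a median of 0.02, and 17 red pulp macrophage genes, which recycle iron, a median of 0.01 with none at an unadjusted p under 0.05. The 14 mature neutrophil genes had a median of −0.09. All 12 genes of neutrophil granule precursors lay lower, with a median of −0.30, but none at an unadjusted p under 0.05. Their mean on the log2 scale was 4.43, 3.65 and 2.94 in HFD+AOS, against 4.49, 4.23 and 3.42 in HFD, and 4.31, 3.78 and 3.83 in AOS-FMT, against 4.08, 4.14 and 4.31 in control-FMT, so the groups overlapped in both pairs. Of 10 smooth muscle genes 9 lay lower, 2 at an unadjusted p under 0.05 (10.4% of all genes), with a median of −0.22. Of 16 glycolysis genes, 15 lay lower, 5 at that level. *Aldoa* (−0.19), *Gpi1* (−0.16) and *Pfkfb3* (−0.20) had no overlap in either pair (1.49% of all genes).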

How the data were processed

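Spleen RNA-seq of 12 diet libraries, 3 a group, was used from a table of 18. Per the submitters' processing notes reads were aligned with Bowtie 0.12.2 to mm10; the sources used here name no counting program or annotation. The deposited unit was taken to be FPKM because, multiplied by transcript length (known for 97.1% of rows) the values summed alike over libraries (CV 0.785%, against 7.55% for totals). RPKM would look the same. Depth is unknown.

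Genes whose average reached 1 FPKM in any diet group (12801) were tested as log2(FPKM + 1) with limma 3.58.1 (trend, robust; statmod 1.5.0, R 4.3.3), after a run on simulated data. AOS source and FMT were additive factors (9 residual degrees of freedom); pairs and interaction used group means (8), with Benjamini-Hochberg adjustment at 0.05. Figures used Python 3.11.15 with matplotlib 3.10.9, pandas 2.3.3 and numpy 2.4.6. The haemoglobin share (10 genes) was tested by exact permutation within pairs.

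Genes named over both pairs were those past the threshold, filled to 6 in each direction by the smallest p among genes averaging 2 FPKM or more; in the pairs and the interaction, those that passed, except 1 that is not reported here. Gene lists with a passing member or a median over 0.25 from that of all genes gave up to 2 members each, by smallest p, with provisional symbols left out; other list members were picked as examples after their values were seen. Members and lists were chosen with earlier results of these data known. Residuals of same-numbered HFD+AOS and HFD libraries correlated at 0.24, 0.27 and 0.19, and those of AOS-FMT and control-FMT at 0.51, 0.39 and −0.11. Those of HFD+AOS and control-FMT, from different pairs, correlated at 0.61, 0.54 and 0.21. Libraries of different number were not compared. A replicate block over all 4 groups is given as an alternative. Alternatives covered the pseudocount, filter, scaling, variance model, all 18 libraries, the block and leaving out each library.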

Additional observations from a re-analysis of the deposited data

Results flagged for a closer look

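In 5 cases a library stood away from the other 5 of its side, by the share of the side's range that the gap to the nearest library took. Of 92 sides examined 5 met this, and chance gives such a gap in about 1 of 20. On the AOS side, AOS-FMT replicate 2 was high in *Gpr132* (gap share 0.631) and in the liver gene *Tat* (0.794). HFD+AOS replicate 3 was low in *Epb42* (0.711) and *Abcb10* (0.698). On the side without AOS, control-FMT replicate 1 was low in the adipocyte gene *Adipoq* (0.728).

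The difference between the pairs itself passed the interaction test for *Dbp* (−2.46), *Nr1d1* (−2.39), *Pgam2* (−1.83), *Tmsb15b1* (−1.63) and *Gm46894* (−1.48), each the AOS-FMT difference minus the HFD+AOS difference on the log2 scale.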

How the results depend on the processing

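No result reversed. Between the 6 libraries with an AOS source and the 6 without, 0 genes passed in every setting over all libraries, the replicate block included, and 0 to 263 with 1 library left out. Between HFD+AOS and HFD, 2 passed without a filter on low values, 0 without trend and robust variance, 0 with all 18 libraries in the fit, 48 with the replicate block, and 0 to 370 with 1 library left out, against 12. Between AOS-FMT and control-FMT, 2 passed without the filter and 1 to 2 with a library left out, against 1. For the interaction, 8 passed without the filter, 3 at a group mean of at least 5 FPKM, 8 after quantile normalization, 2 with all 18 libraries, 13 with the replicate block, and 1 to 10 with a library left out, against 5. The cause was not tested. The difference in haemoglobin share was 5.16 points with the replicate block (exact permutation p = 0.03125, which passes, against 0.16 without it). That p is the smallest the blocked test can give. The difference was 2.78 points with 4 of the 10 haemoglobin genes alone (exact permutation p = 0.315). With 1 library left out it was 3.19 to 7.90 points, and it passed only without HFD replicate 1. Scaling by median ratios set the median of all genes at −0.01 over both pairs. With 3 libraries a group and no depth, small differences in low genes were not detectable.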

Other observations

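All 13 MHC class I and immunoproteasome genes lay lower in AOS-FMT than in control-FMT, 5 at an unadjusted p under 0.05 (7.98% of all genes were lower at that level, and 34.3% lay higher), with a median of −0.24, and their median was −0.01 between HFD+AOS and HFD. Of 17 genes of the TNF and NF-kB response, 15 lay lower over both pairs, 7 at that level (10.4% of all genes), with a median of −0.15.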
